A study of Mus musculus with 112 samples.

Results

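The genes described here are 9 regulators of epithelial splicing and identity: the splicing factors Esrp1 and Esrp2, the grainyhead-like transcription factors Grhl1, Grhl2 and Grhl3, the zinc finger repressors Ovol1 and Ovol2, and the ETS family factors Elf3 and Ehf. They were chosen by symbol through the array's annotation, and each was read by 1 probe set that names a single gene. They are 9 of the 18772 genes measured in this way. The rule uses no measured value, but the members were chosen with earlier results of these data known. All values are log2 intensities, on which a difference of 1 is a doubling.

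Esrp proteins bind RNA in epithelial cells and favour the epithelial exons of transcripts such as Fgfr2, Cd44 and Enah. Grainyhead-like factors switch on genes of cell junctions and of the skin barrier, and Ovol factors repress, among others, the genes of the Zeb repressors that drive the epithelial to mesenchymal transition. Elf3 and Ehf belong to the epithelium-specific branch of the ETS family and act in the differentiation of surface epithelia. An array read per gene measures the amount of RNA and not which exons were joined, so the splicing that Esrp proteins control was not measured.

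Promoter windows of 300 bases, 250 before and 50 after the annotated start, were available from RefSeq (GRCm38.p6) for 4 of the 9 members. They are shown because the Zeb and Snai repressors measured beside these genes bind the E-box CACCTG or its complement CAGGTG. Over all mice, Grhl1, Grhl3 and Ovol2 were called lower in the spindle carcinomas described below, and Elf3 was not. Capitals mark an E-box on either strand, and each sequence is written 5′ to 3′ on the gene's own strand. The windows lie at chr12:24572037-24572336 on the plus strand for the first of the Grhl1 starts in the table, at chr4:135573583-135573882 on the minus strand for Grhl3, at chr2:144331313-144331612 on the minus strand for Ovol2 and at chr1:135258423-135258722 on the minus strand for Elf3.
Grhl1: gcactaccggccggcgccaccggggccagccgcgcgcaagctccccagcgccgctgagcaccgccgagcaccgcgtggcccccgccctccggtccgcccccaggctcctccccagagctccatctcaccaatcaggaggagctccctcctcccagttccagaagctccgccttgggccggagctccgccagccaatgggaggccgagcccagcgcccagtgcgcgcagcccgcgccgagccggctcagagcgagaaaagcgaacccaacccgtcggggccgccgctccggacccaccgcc
Grhl3: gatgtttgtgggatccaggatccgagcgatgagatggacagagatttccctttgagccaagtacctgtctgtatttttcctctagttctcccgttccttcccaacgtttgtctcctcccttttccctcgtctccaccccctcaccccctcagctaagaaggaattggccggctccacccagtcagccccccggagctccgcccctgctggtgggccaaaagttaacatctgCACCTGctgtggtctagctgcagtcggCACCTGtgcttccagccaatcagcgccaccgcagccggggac
Ovol2: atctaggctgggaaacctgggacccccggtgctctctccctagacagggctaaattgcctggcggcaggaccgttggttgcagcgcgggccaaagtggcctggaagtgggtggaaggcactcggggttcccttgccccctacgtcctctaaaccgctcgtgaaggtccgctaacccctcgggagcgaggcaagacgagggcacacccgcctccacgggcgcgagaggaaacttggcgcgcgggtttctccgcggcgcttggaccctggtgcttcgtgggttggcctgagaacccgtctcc
Elf3: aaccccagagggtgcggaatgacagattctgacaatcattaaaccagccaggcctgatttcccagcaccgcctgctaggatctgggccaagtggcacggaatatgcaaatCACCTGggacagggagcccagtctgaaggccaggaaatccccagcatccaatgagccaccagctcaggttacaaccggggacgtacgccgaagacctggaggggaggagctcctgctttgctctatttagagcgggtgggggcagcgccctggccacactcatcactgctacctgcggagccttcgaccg
The Grhl3 window held 2 E-boxes, 19 bases before and 8 bases after the start, and the Elf3 window held 1, at 140 bases before the start. The Ovol2 window and both Grhl1 windows (the other start lies at chr12:24580469-24580768, plus strand) held 0. Of all 32851 windows of the same length in the table, 20.2% held at least 1 E-box. The grainyhead core AACCGGTT, which does not overlap the E-box letters, was in 0.146% of all windows and in none of these 5. G and C made up 75.3% of the first Grhl1 window, 65.7% of the Ovol2 window, 59.0% of the Elf3 window and 58.3% of the Grhl3 window, against a median of 52.7% over all windows. A match of letters is a description and says nothing of binding in these tissues.

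The samples were 112 Affymetrix arrays of bulk RNA from 15 male mice of a backcross, in which F1 animals of Mus spretus and FVB were bred to FVB. Every animal was given the carcinogen DMBA once, at 8 weeks, followed by repeated applications of the tumour promoter TPA. There were 9 wild type (WT) and 6 HrasKO mice, the second name being that of a knockout; the targeted gene was not analysed here, so these labels were not checked against it. The groups used were papilloma (27 arrays of 13 mice, 9 WT and 4 HrasKO), squamous cell carcinoma (SCC, 10 arrays of 8 WT mice), spindle carcinoma (12 arrays of 10 mice, 6 WT and 4 HrasKO), SCC metastasis (24 arrays of 11 mice, 8 WT and 3 HrasKO) and spindle metastasis (20 arrays of 7 mice, 3 WT and 4 HrasKO). Dorsal skin labelled normal (15 arrays of 15 mice, 9 WT and 6 HrasKO) was the baseline. The 3 carcinomas and 1 metastasis labelled mixed entered no comparison. Ages at sampling are not given. Primary tumours were removed when larger than 1 cm and metastases at sacrifice. The mouse was the unit of every test, with arrays of 1 mouse and group averaged first.

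Array medians lay between 5.89 and 6.36, and pairs of arrays correlated over all genes at r from 0.8 to 0.994. The mean of 10 keratinocyte markers, among them Krt5, Krt14 and Trp63, was 11.71 ± 0.38 in skin (SD, n = 15), 11.51 ± 1.52 in papilloma (n = 13), 11.49 ± 0.29 in SCC carcinoma (n = 8), 8.23 ± 1.56 in spindle carcinoma (n = 10), 9.14 ± 1.84 in SCC metastasis (n = 11) and 6.18 ± 0.75 in spindle metastasis (n = 7). Several arrays lay closer to another class than to that of their label. The classes were skin, squamous (papillomas, SCC carcinomas and SCC metastases pooled) and spindle (carcinomas and metastases pooled), compared by correlation. Set against the class means of the other mice over all genes but the members, 19 arrays lay closest to another class: 7 papillomas, 1 SCC carcinoma, 10 SCC metastases and 1 spindle carcinoma. Among them, both papillomas of mouse 1815, 1 papilloma of mouse 1984, the SCC lung metastases of mice 1949, 1664 and 1616 and the SCC lymph node metastases of mouse 1706 lay closest to spindle tumours, and the spindle carcinoma of mouse 1949 lay closest to squamous tumours. Of these, mice 1664, 1616 and 1706 are the 3 HrasKO mice with SCC metastases. In WT mouse 1383 a lymph node metastasis (r = 0.074 with spindle, -0.008 with squamous) and the liver metastasis (0.061, -0.176) also lay closest to spindle tumours. So did the lymph node metastases of WT mouse 1508 (0.203, 0.027) and HrasKO mouse 1616 (0.125, -0.007). A papilloma each of mice 1407, 1706 and 1949 and an SCC carcinoma of mouse 1949 lay closest to skin. The part of host organ RNA was not tested. These arrays are kept under their labels, and results that rest on them are also given without them; since they were picked by expression, leaving them out widens the gap between classes by construction. Of the 8 carcinomas whose titles carry the tag RegCA, a term not defined in the sources used here, 7 were spindle.

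Across the 6 groups all 9 genes had their lowest mean in spindle metastasis. The next lowest was spindle carcinoma for 8 of them and skin for Elf3. Esrp1 averaged 10.76 ± 0.59 in skin (SD, n = 15), 10.28 ± 1.91 in papilloma (n = 13), 10.73 ± 0.32 in SCC carcinoma (n = 8), 6.06 ± 2.08 in spindle carcinoma (n = 10), 9.10 ± 2.17 in SCC metastasis (n = 11) and 4.86 ± 0.86 in spindle metastasis (n = 7). It ran from 8.96 to 11.21 (median 10.94) in skin, from 4.33 to 11.42 (median 11.02) in papilloma and from 10.22 to 11.30 (median 10.67) in SCC carcinoma. Over the spindle carcinoma mice it ran from 4.03 to 10.96 (median 5.53), with 9 of them at or below 7.15 and mouse 1949 alone at the top. SCC metastases covered nearly the whole span, from 4.54 to 10.74 (median 10.48), and spindle metastases lay between 4.19 and 6.73 (median 4.64). Esrp2, the close relative of Esrp1 with overlapping targets, followed the same order in the tumours at 9.43 ± 1.62 in papilloma, 9.82 ± 0.42 in SCC carcinoma, 5.82 ± 1.62 in spindle carcinoma, 8.27 ± 1.64 in SCC metastasis and 5.25 ± 0.57 in spindle metastasis, after 9.60 ± 0.84 in skin.

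**Figure D1:**
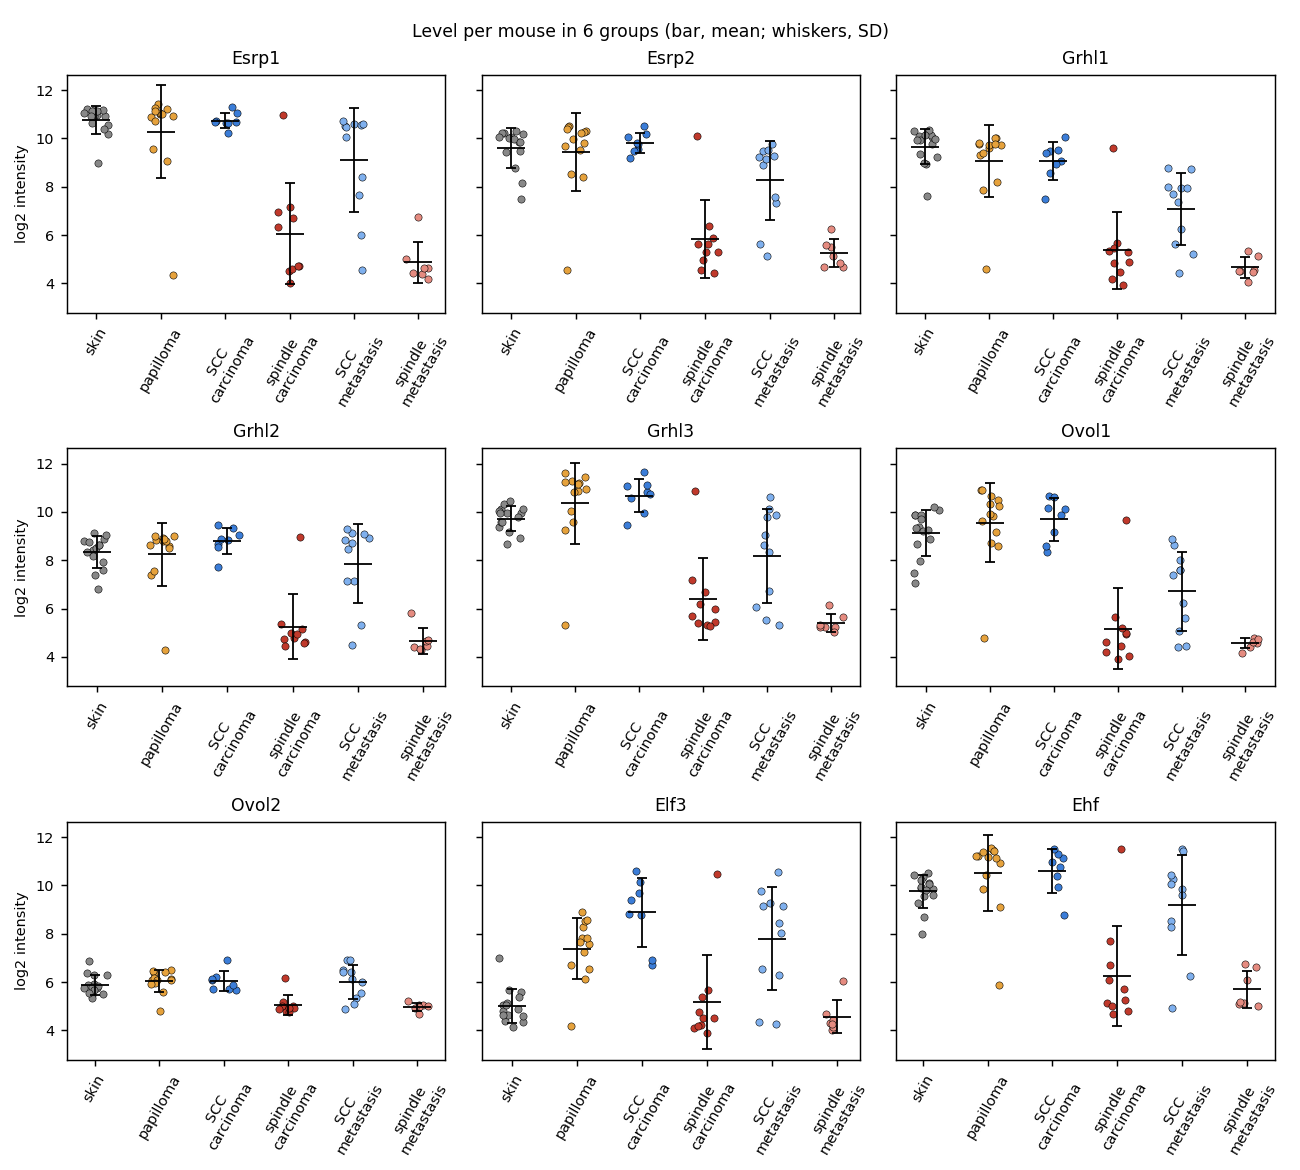
Level of each of the 9 genes (y axis, log2 intensity) in dorsal skin, papilloma, SCC carcinoma, spindle carcinoma, SCC metastasis and spindle metastasis, with 1 point per mouse, the bar at the mean and whiskers of 1 SD. Spindle carcinomas sit low apart from mouse 1949 (Esrp1 10.96), and Elf3 is low in skin (mean 5.02) and high in SCC carcinoma (mean 8.88).

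Of the grainyhead-like genes, Grhl1, which controls desmosomal genes of the upper epidermis, averaged 9.65 ± 0.73 in skin, 9.06 ± 1.49 in papilloma, 9.07 ± 0.78 in SCC carcinoma, 5.37 ± 1.59 in spindle carcinoma, 7.09 ± 1.48 in SCC metastasis and 4.66 ± 0.44 in spindle metastasis. Grhl2, a regulator of Cdh1 and claudin genes, averaged 8.34 ± 0.65, 8.25 ± 1.29, 8.81 ± 0.54, 5.26 ± 1.33, 7.86 ± 1.65 and 4.67 ± 0.54 over the same 6 groups in that order. Grhl3, which is needed for the skin barrier of the mouse, averaged 9.73 ± 0.51, 10.37 ± 1.68, 10.68 ± 0.70, 6.40 ± 1.69, 8.19 ± 1.95 and 5.41 ± 0.37. The mean of SCC metastasis thus lay between those of the squamous primaries and of the spindle tumours for all 3 genes. For Grhl2 the median SCC metastasis mouse was at 8.72, near the 8.85 of SCC carcinoma, and the mice ran from 4.47 to 9.29. Ovol1, a repressor acting in keratinocyte differentiation, averaged 9.12 ± 0.96, 9.55 ± 1.63, 9.69 ± 0.89, 5.17 ± 1.67, 6.72 ± 1.63 and 4.56 ± 0.21. Ovol2, its relative, had a far narrower range, at 5.89 ± 0.41, 6.05 ± 0.45, 6.04 ± 0.40, 5.06 ± 0.41, 6.02 ± 0.71 and 4.99 ± 0.17, and its highest mouse value in any of the 6 groups was 6.93, in SCC metastasis. Its mean over all arrays was 5.72, above that of 38.2% of genes and below the median of all values (6.12). Whether this low signal limits its range was not tested.

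Elf3 had an order of its own, averaging 5.02 ± 0.71 in skin, 7.38 ± 1.27 in papilloma, 8.88 ± 1.42 in SCC carcinoma, 5.18 ± 1.95 in spindle carcinoma, 7.80 ± 2.14 in SCC metastasis and 4.56 ± 0.69 in spindle metastasis. Ehf averaged 9.76 ± 0.68, 10.52 ± 1.57, 10.60 ± 0.90, 6.26 ± 2.07, 9.20 ± 2.06 and 5.70 ± 0.77 over the same groups in that order. With the groups of each gene ranked by mean, most neighbours differed by less than the larger of their SDs. The step between SCC metastasis and spindle carcinoma was larger than that SD for Esrp1, Esrp2, Grhl1, Grhl2 and Ehf. For Grhl1 the step between papilloma and SCC metastasis was also larger, as were that between skin and SCC metastasis for Ovol1, that between skin and spindle carcinoma for Ovol2 and that between papilloma and spindle carcinoma for Elf3. No neighbouring step of Grhl3 was.

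Between papillomas and the skin of the same 13 mice, Elf3 alone of the 9 genes was called. Elf3 ran from 4.19 to 8.89 (median 7.68) in the papillomas, against 4.12 to 6.98 (median 4.87) over all 15 skins, and was higher in the papillomas of 12 of 13 mice. The difference was +2.41 (SE 0.46, adjusted p = 0.00076, limma with Benjamini-Hochberg adjustment over all genes), so 1 of 9 members was called where 42.6% of all genes were. The other 8 lay between -0.55 for Grhl1 and +0.80 for Ehf (adjusted p between 0.181 and 0.915). Mouse 1815 set much of this spread: its papillomas had Esrp1 at 4.24 and 4.42 and were below its skin for all 9 genes, by -0.99 (Ovol2) to -6.85 (Esrp1). Without that mouse 4 of 9 members were called, where 45.8% of all genes were. These 4 were higher in papilloma: Elf3 (+2.84, adjusted p = 1.76e-06), Ehf (+1.25, 0.000452), Grhl3 (+1.08, 0.00195) and Ovol1 (+0.94, 0.0189). Without all arrays that stood apart 8 were called higher, where 52.0% of all genes were called. Esrp1 at +0.43 (0.0415), Esrp2 at +0.78 (0.0103) and Grhl2 at +0.58 (0.0122) were then on the opposite side of 0 from the values over all arrays. Grhl1 at +0.22 (0.414) was not called. In bulk tissue a change in the share of epithelial cells and a change in RNA per cell cannot be told apart. Of the markers, keratinocyte genes had 0 of 10 called, with means from 6.85 to 12.39 over the papilloma mice and from 10.81 to 12.26 over the skins (a log2 level has no zero), while 4 of 4 skeletal muscle, 4 of 4 sebocyte and 4 of 4 hair shaft genes were lower in papilloma, with medians of -3.14, -3.45 and -3.28, and their part in the result was not tested.

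No member was called between SCC carcinomas and the papillomas of the same 8 mice, where 0.202% of all genes were. Elf3 had the largest difference, +1.30 (SE 0.54, adjusted p = 0.483), and was higher in SCC carcinoma in 6 of 8 mice. The other 8 genes lay between -0.37 (Ovol1) and +0.33 (Grhl2), with adjusted p from 0.816 to 0.997. Esrp1, Esrp2, Grhl1, Grhl3, Ovol1 and Ehf were higher in SCC carcinoma in 2 of 8 mice, 1508 and 1984. The papilloma means of these mice include an array that stood apart, and Elf3 differed by +3.14 and +4.02 in them. Without the arrays that stood apart Esrp2 alone was called, lower in SCC carcinoma (adjusted p = 0.0379), where 1.87% of all genes were called. Set against skin of the same 8 mice, with 30.6% of all genes called, 2 members were higher in SCC carcinoma. Elf3 ran from 6.71 to 10.58 over the 8 SCC carcinoma mice, against 4.34 to 5.69 in their 8 skins, and the difference was +3.91 (SE 0.46, adjusted p = 0.000429). Over all 15 skins it reached 6.98, within the range of the SCC carcinoma mice. Grhl3 was higher by 1.06 (SE 0.27, adjusted p = 0.0166), in 7 of 8 mice. Of its barrier targets Tgm1, the transglutaminase that crosslinks the cornified envelope, was higher by 1.28 (adjusted p = 0.00837), the single one of 4 called. Elf5, an ETS relative of Elf3 and Ehf, was higher by 2.34 (0.00715). Of the 10 keratinocyte markers 3 were higher and 2 lower in SCC carcinoma, 4 of 4 sebocyte markers were lower (median -4.32) and so were 3 of 4 skeletal muscle markers (median -2.45); their part in the result was not tested.

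In spindle carcinomas 8 of the 9 genes were lower than in the papillomas of the same 9 mice, where 23.8% of all genes were called, and the members' median difference was -3.40 against 0.03 over all genes. The difference was -3.93 for Esrp1 (SE 0.76, adjusted p = 0.00966) and -3.27 for Esrp2 (SE 0.66, 0.0106), a more than 8-fold lower intensity for both splicing factors. It was -3.40 for Grhl1 (SE 0.58, 0.00834), -2.72 for Grhl2 (SE 0.54, 0.0102) and -3.54 for Grhl3 (SE 0.65, 0.00903). Among the repressors it was -3.91 for Ovol1 (SE 0.67, 0.00834) and -0.96 for Ovol2 (SE 0.21, 0.0131). Of the ETS factors Ehf differed by -3.90 (SE 0.69, 0.00847), and Elf3, at -1.91 (SE 0.68, 0.0686), was not called, though it was without mouse 1815 (-2.18, 0.0444) or mouse 1949 (-2.49, 0.00669).

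The mice were of 3 kinds. In 7 of the 9 mice all 9 genes were lower in the spindle carcinoma than in the papillomas. For Esrp1 these differences were -6.86 in mouse 1407, -6.52 in mouse 1664, -5.07 in mouse 1508, -4.92 in mouse 1509, -4.35 in mouse 1984, -4.09 in mouse 1383 and -3.87 in mouse 2022. In mouse 1815 the papillomas were already low, and the differences ran from -0.83 (Ehf) to +0.77 (Esrp2). In mouse 1949 the spindle carcinoma was as high as the papilloma, and they ran from -0.26 (Ovol1) to +2.80 (Elf3). Without the arrays that stood apart, in 7 mice, all 9 genes were called lower, Elf3 by -3.36, where 42.1% of all genes were called. Without the RegCA carcinomas 5 mice remained, and 0 members and 0 of all genes were called, although the members' differences lay between -1.11 (Ovol2) and -4.62 (Ehf), with adjusted p from 0.0822 to 0.0945.

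**Figure D2:**
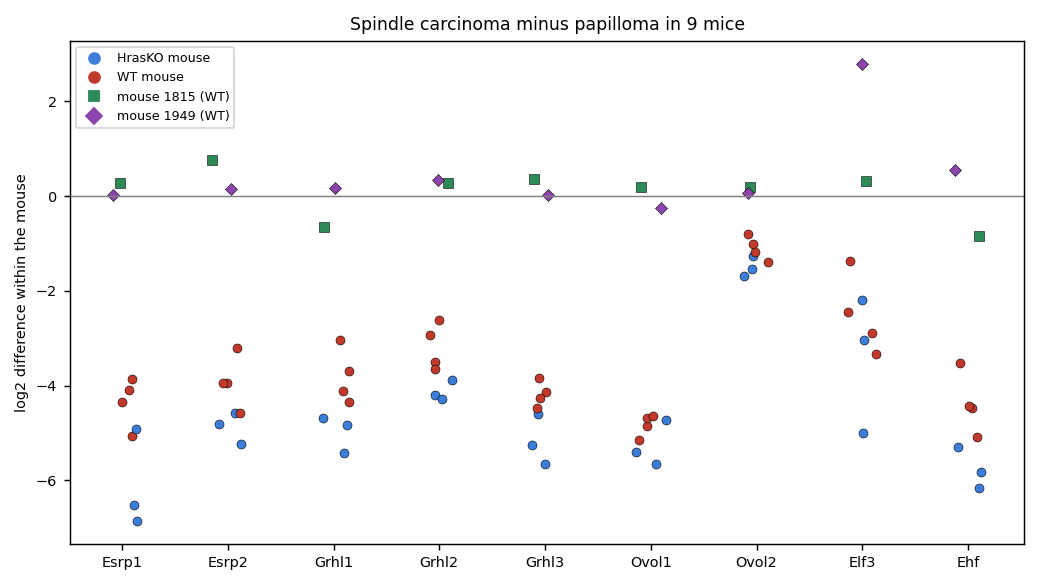
Difference between spindle carcinoma and papilloma (y axis, log2) for each of the 9 genes (x axis) within 9 mice, with squares for mouse 1815 and diamonds for mouse 1949. The other 7 mice lie below 0 for every gene, with Ovol2 nearest to it, while mouse 1949 reaches +2.80 for Elf3.

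Against skin of the same 10 mice, with 46.7% of all genes called, the same 8 members were lower in spindle carcinoma, from -0.88 for Ovol2 (SE 0.08, adjusted p = 1.5e-05, lower in 10 of 10 mice) to -4.77 for Esrp1 (SE 0.58, 7.34e-05). Elf3, low in skin, differed by +0.05 (0.959), a value that rests on mouse 1949 (+5.86); without the arrays that stood apart, in 9 mice, it differed by -0.60 (0.0753), and the other 8 members were still called lower. Of the markers 10 of 10 keratinocyte genes were lower (median -3.72), 5 of 5 macrophage genes were higher (median +1.18), and 4 of 4 each of the sebocyte, hair shaft and skeletal muscle genes were lower, with medians of -4.55, -4.24 and -2.88; their part in the result was not tested. Apart from mouse 1949, at 10.48, the spindle carcinoma mice had Elf3 between 3.89 and 5.69, against 4.12 to 6.98 in the 15 skins.

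The comparison of spindle with SCC carcinoma was made in WT mice, since no HrasKO mouse had an SCC carcinoma, and it gave the same 8 members as lower in spindle carcinoma, where 7.56% of all genes were called. The spindle carcinomas of mice 1508, 1949, 1984 and 2022 carry the RegCA tag, as does 1 SCC carcinoma. Without RegCA carcinomas, in 2 spindle and 8 SCC carcinoma mice, 8 members were called lower, where 5.28% of all genes were called. Esrp1 averaged 6.48 ± 2.50 in spindle carcinoma (SD, n = 6) and 10.73 ± 0.32 in SCC carcinoma (n = 8), a difference of -4.28 (SE 0.83, adjusted p = 0.0162). Ovol1 averaged 5.57 ± 2.12 in spindle and 9.69 ± 0.89 in SCC carcinoma, a difference of -4.15 (SE 0.78, 0.0156). Both ranges overlapped only through the spindle carcinoma of mouse 1949. The differences were -3.64 for Esrp2 (SE 0.68, 0.0156), -3.44 for Grhl1 (SE 0.73, 0.0186), -3.25 for Grhl2 (SE 0.59, 0.0156) and -3.84 for Grhl3 (SE 0.73, 0.0158). They were -3.90 for Ehf (SE 0.93, 0.0252) and -0.90 for Ovol2 (SE 0.24, 0.0356), while Elf3 at -3.27 (SE 0.96, 0.0531) was not called. The members' median was -3.64, against 0.02 over all genes. Single mice decided these calls: 0 members were called without mouse 1508 or without mouse 1984, 5 without mouse 2022, 6 or 7 without mouse 1383, 1456, 1815, 1717 or 2104, and 9 without mouse 1949, when 3678 of all genes were called and Elf3 differed by -4.50 (0.000187). Of the keratinocyte markers 8 of 10 were called lower too, with a median of -3.18 (10 of 10 and -3.16 against papilloma, a comparison that shares the WT spindle carcinomas). Their mean ran from 6.33 to 10.87 over the 10 spindle carcinoma mice and from 11.18 to 12.07 over the 8 SCC carcinoma mice, and its part in the result was not tested.

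**Figure D3:**
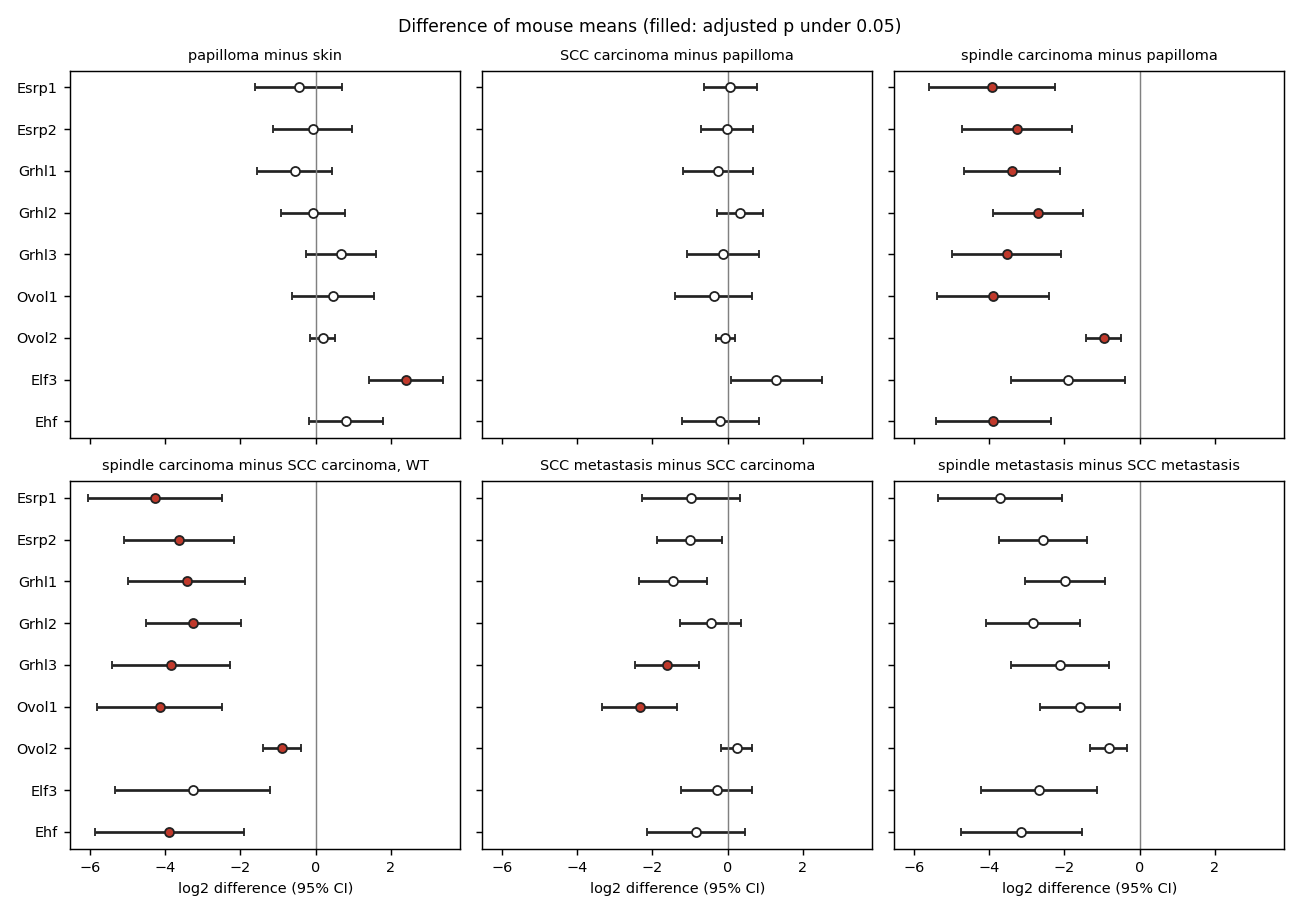
Log2 difference of each of the 9 genes (y axis) in 6 comparisons, with 95% confidence intervals, filled where the adjusted p was below 0.05. Esrp1 lies at -3.93 between spindle carcinoma and papilloma and at -4.28 between spindle and SCC carcinoma, both filled, and Elf3 is filled at +2.41 between papilloma and skin.

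Genes of epithelial junctions and polarity were lower together with the members, 16 of 20 measured between spindle carcinoma and papilloma (median -2.27) and 14 of 20 between spindle and SCC carcinoma (median -2.66), with 0 higher in both. The largest falls were those of Mal2, a membrane protein of apical transport, by -4.27 (SE 0.89, adjusted p = 0.0119) against papilloma and -4.13 (0.0358) against SCC carcinoma, and of Rab25, an epithelial GTPase of recycling endosomes, by -3.70 (0.0101) and -4.00 (0.0186). Of the barrier genes downstream of grainyhead factors 3 of 4 were lower in both comparisons. Dsg1b, a desmosomal cadherin, was lower by -4.47 (0.00775) than in papilloma and by -4.18 (0.0174) than in SCC carcinoma. Tgm5 was lower than in papilloma by -3.10 (0.00796), and Tgm1 was lower than in SCC carcinoma by -3.31 (0.0177). Among the members' relatives, Elf5 was lower by -3.30 (0.0152) than in papilloma and by -3.34 (0.0462) than in SCC carcinoma, and Tfcp2l1, a grainyhead-related factor, by -1.64 (0.015) than in papilloma. Tfcp2 and Elf4, more widely expressed relatives, were higher than in papilloma by 0.56 and 0.48.

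Of 8 measured transcripts known to be spliced by Esrp proteins, 5 were lower in total RNA than in papilloma and 4 than in SCC carcinoma, with 0 higher. Fgfr2, a fibroblast growth factor receptor, was lower by -2.53 (adjusted p = 0.014) than in papilloma and by -2.52 than in SCC carcinoma. Cd44, a hyaluronan receptor, was lower by -1.72 (0.00902) and -1.98. Of the other splicing regulators 0 were lower: 5 of 12 were higher than in papilloma and 3 of 12 than in SCC carcinoma. They included Celf2, higher by 0.96 (0.0313) and 1.26 (0.0451), and Ptbp2, higher by 0.82 (0.0151) and 1.08 (0.0341). Of the 7 repressors linked to the epithelial to mesenchymal transition, 3 were higher and 1 was lower than in papilloma, and 2 were higher and 1 lower than in SCC carcinoma. Snai1 was higher than in papilloma by 1.75 (0.0104) and than in SCC carcinoma by 1.49 (0.0229), and Zeb1, which Ovol factors repress, by 1.38 (0.0206) and 1.70 (0.0422). Snai2, which keratinocytes also express, was lower by -0.73 (0.0112) and -1.11 (0.0372).

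SCC metastases differed from the SCC carcinomas of the same 8 mice in 2 members, Ovol1 and Grhl3, both lower in metastasis, where 4.55% of all genes were called. Ovol1 averaged 7.35 ± 1.44 in SCC metastasis and 9.69 ± 0.89 in SCC carcinoma (SD, n = 8 each), a difference of -2.35 (SE 0.45, adjusted p = 0.0237). It was lower in 8 of 8 mice, by -0.96 in mouse 1383 and in mouse 2022, -1.49 in mouse 1717, -1.74 in mouse 2104, -1.86 in mouse 1456, -2.58 in mouse 1508, -4.42 in mouse 1984 and -4.75 in mouse 1949. Grhl3 averaged 9.06 ± 1.44 in SCC metastasis and 10.68 ± 0.70 in SCC carcinoma, a difference of -1.62 (SE 0.38, 0.0476), and was also lower in 8 of 8 mice. Grhl1 (-1.45, 0.0694) and Esrp2 (-1.01, 0.166) were below their carcinomas in 8 of 8 mice without passing the threshold. Esrp1 (-0.98, 0.382), Ehf (-0.83, 0.472), Grhl2 (-0.45, 0.548), Elf3 (-0.29, 0.778) and Ovol2 (+0.24, 0.516) were not called, and in Esrp1 the single large fall was that of mouse 1949 (-5.68). Ovol1 was not called without mouse 1456 (-2.42, 0.0635) or mouse 1508 (-2.31, 0.0548), and Grhl3 was not called in 7 of the 8 fits that left out 1 mouse (all but that without mouse 2104), with values from -1.29 to -1.78. The calls also depended on which metastases entered: with lymph node metastases alone Ovol1 differed by -1.60 (0.0696) and Grhl3 by -1.10 (0.0902). Without the arrays that stood apart they differed by -1.91 (0.0901) and -1.08 (0.144) in 6 mice.

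Of the junction genes 0 of 20 were called between SCC metastasis and SCC carcinoma, with Prss8 at -1.79 (adjusted p = 0.124) and Cldn3 at +1.60 (0.0681) the furthest apart. Of the barrier genes 3 of 4 were lower in SCC metastasis, Dsg1b by -3.51 (0.00699) and Tgm5 by -2.55 (0.0111), and Elf5 was lower by -2.31 (0.0357). The keratinocyte markers Krt1 and Krt10, keratins of the differentiated layers, were lower by -4.36 (0.00989) and -3.89 (0.00681), while the other 8 keratinocyte markers were not called. Markers of the host organ moved as well: 3 of 3 measured B cell markers were higher in SCC metastasis (median +2.95), and Napsa, a lung epithelial protease, was higher by 1.11 (0.0395), the single one of 9 lung markers called. The mean of the B cell markers ran from 6.88 to 10.47 over the 11 SCC metastasis mice and from 4.67 to 5.47 over the 8 SCC carcinoma mice, and its part in the result was not tested.

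Spindle metastases had no member called against the spindle carcinomas of the same 7 mice, with 0% of all genes called (2495 of them at an unadjusted p below 0.05). The differences lay between -0.13 (Ovol2) and -1.14 (Esrp1), with adjusted p from 0.54 to 0.827, and their intervals were wide: that of Esrp1 ran from -3.06 to +0.78. Mouse 1949, whose spindle carcinoma had squamous levels, gave most of this, with Esrp1 lower by -6.57 in its metastases; without that mouse the members' differences lay between -0.24 and +0.50.

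Within the spindle metastases the 11 lymph node arrays were uniform, with Esrp1 between 4.13 and 4.83, while single arrays from lung, liver and spleen stood above them in some members. The lung metastasis of mouse 1537 had Esrp1 at 8.75, Esrp2 at 7.31, Grhl2 at 7.08, Elf3 at 7.17 and Ehf at 8.83, but Grhl1 at 4.60, Grhl3 at 5.69 and Ovol1 at 4.77. The lymph node metastasis of that mouse had Esrp1 at 4.71. Thus 5 members were high in that lung array and the 3 others named lay within the range of the remaining arrays. Its 9 lung epithelial markers averaged 10.58 and its keratinocyte markers 8.27. The lung metastasis of mouse 1509 had Esrp1 at 4.65 and Ehf at 6.76, with lung markers at 7.13. The liver metastasis of mouse 1815 had Esrp1 and Esrp2 at 7.56, Elf3 at 6.89 and Ehf at 8.16, with liver markers at 11.28, and that of mouse 1664 had Esrp2 at 7.02 and Elf3 at 5.97 but Esrp1 at 4.79, with liver markers at 10.66. The spleen metastasis of mouse 1815 had Grhl1 at 5.93 and Ehf at 6.55, above the lymph node arrays (up to 5.37 and 5.98). Markers of the organ were thus raised on each of these lung and liver arrays, while only some members were. The part of these markers in the members' levels was not tested.

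**Figure D4:**
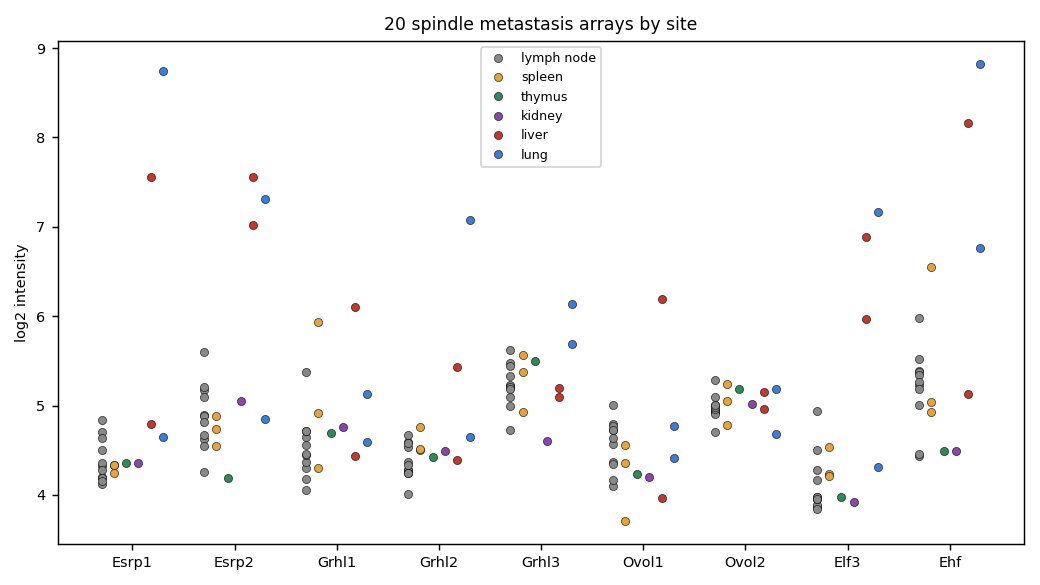
Level of each of the 9 genes (log2 intensity) on the 20 spindle metastasis arrays by site. Lymph node arrays lie together (Esrp1 4.13 to 4.83), and the lung metastasis of mouse 1537 (Esrp1 8.75) and the liver metastasis of mouse 1815 (7.56) lie above them.

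Spindle metastases had lower mean levels than SCC metastases for all 9 genes, yet 0 members passed the threshold over all sites, where 0.0693% of all genes were called (3378 at an unadjusted p below 0.05). Esrp1 averaged 4.86 ± 0.86 in spindle metastasis (SD, n = 7) and 9.10 ± 2.17 in SCC metastasis (n = 11), a fitted difference of -3.72 (SE 0.78, adjusted p = 0.0542). It was -2.84 for Grhl2 and -2.58 for Esrp2, both with an adjusted p of 0.0542, -3.15 for Ehf (0.0667), -2.68 for Elf3 (0.0859) and -1.98 for Grhl1 (0.0725). Ovol1 (-1.59, 0.124), Grhl3 (-2.13, 0.0987) and Ovol2 (-0.83, 0.0972) were the furthest from the threshold. The SCC metastases of mice 1706 and 1949, with Esrp1 at 5.99 and 4.54, overlapped the spindle range. In lymph node metastases alone all 9 members were called lower in spindle metastasis, from -1.10 for Ovol2 (0.00853) to -5.20 for Esrp1 (0.000152). In that fit 2213 of the 18772 genes were called. Without the arrays that stood apart all 9 were called too, with Esrp1 at -5.84 (1.08e-05), where 1342 of all genes were called. Without the genotype term 8 were called, where 611 of all genes were. Leaving out mouse 1509 or mouse 1949 gave 5 calls and leaving out mouse 1537 or mouse 1706 gave 3, all lower in spindle metastasis. Keratinocyte markers differed by a median of -2.65 and lung epithelial markers by -1.54 in the comparison over all sites, with 0 of 10 and 0 of 9 called. On the lymph node arrays the keratinocyte mean ran from 5.38 to 7.29 in spindle metastasis and from 5.69 to 10.92 in SCC metastasis, and the part of these markers in the result was not tested.

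Between lung and lymph node metastases, 8 mice each, no member was called, with 0% of all genes called (1155 at an unadjusted p below 0.05). In mice 1664, 1949 and 1984 the lung metastasis was SCC and the lymph node metastases were spindle. With mouse and histology in the fit, the site difference therefore rests on mice 1383, 1456, 1537, 1616 and 1717. Among these, Esrp1 was 6.205 in the lung and 10.635 in the lymph node metastasis of mouse 1616. In mouse 1537 it was 8.748 and 4.709. The differences lay between -0.64 (Ovol1) and +1.08 (Ehf), with adjusted p from 0.957 to 0.998 and intervals that reached over 1 log2 unit to each side for 8 of the 9 genes; that of Ehf ran from -1.11 to +3.28. Lung epithelial markers differed by a median of +5.54 in the same comparison, with 0 of 9 called.

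No member was called between HrasKO and WT mice in skin, papilloma or spindle carcinoma, where 0.0053%, 0.0053% and 0% of all genes were called (626 in spindle carcinoma at an unadjusted p below 0.05). In skin the differences lay between -0.51 (Grhl1) and +0.26 (Grhl3), with 6 HrasKO and 9 WT mice. In papilloma they lay between +0.13 (Ovol1) and +0.92 (Esrp1), with 4 HrasKO and 9 WT mice. In spindle carcinoma they lay between -0.15 (Ovol2) and -1.08 (Ehf), with 4 HrasKO and 6 WT mice. The papillomas of mouse 1815 and the spindle carcinoma of mouse 1949 were both in the WT groups, and the interval for Esrp1 ran from -1.50 to +3.34 in papilloma and from -3.99 to +2.39 in spindle carcinoma, so differences of several fold were not detectable. The genotypes were not tested within SCC metastasis, where the low levels were mostly those of HrasKO mice. Esrp1 was 8.42, 7.66 and 5.99 in the 3 HrasKO mice, against 10.04 to 10.74 in 7 of the 8 WT mice and 4.54 in WT mouse 1949. Grhl3 was 6.75, 5.30 and 5.51 in the HrasKO mice, against 8.35 to 10.61 in the same 7 WT mice and 6.05 in mouse 1949. The lymph node metastasis of HrasKO mouse 1616 had Esrp1 at 10.635 and Grhl3 at 8.441, within those WT ranges. Its lung metastasis had 6.205 and 5.053. B cell markers averaged 11.76 and lung markers 9.61 on that lung array, and 9.41 and 9.78 on that of mouse 1664. For lymph nodes, B cell markers averaged 11.41, 11.67 and 7.37 in mouse 1706 and 10.47 in WT mouse 1508. The part of these markers in the levels was not tested.

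Over the 64 mouse means of the 6 groups, the 36 pairs of members correlated at r from 0.51 to 0.98 (median 0.92), as a description of points that share mice and the split into squamous and spindle tissue. The genes outside the set whose levels followed Esrp1 most closely were Nipal2 (r = 0.988), Rab25 (0.987) and Trp63 (0.979), the last a transcription factor needed for stratified epithelia, and those for Esrp2 were Nipal2 (0.983), Ap1m2 (0.982) and Rab25 (0.981). Those nearest to Grhl1 were Tmprss13 (0.982), Nectin4 (0.981) and Zfp750 (0.98). Grhl2 lay nearest to Ap1m2 (0.985), Kdf1 (0.982) and Grb7 (0.978). Grhl3 and Ovol1 shared 2 of their 3 nearest genes, Cers3 (0.987 with Grhl3, 0.978 with Ovol1), a ceramide synthase of the skin, and Cyp4f39 (0.983 and 0.975), the others being Trex2 (0.979) for Grhl3 and Tmprss13 (0.981) for Ovol1. Ehf lay nearest to Ripk4 (0.979), Mal2 (0.969) and Rab25 (0.968). For Ovol2, with its narrow range, the closest were Fat2 (0.891), Fermt1 (0.89) and Cblc (0.886). For Elf3 they were Psca (0.899), Pitpnm3 (0.896) and Tmprss11b (0.89).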

How the data were processed

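RNA of skin, tumours and metastases was extracted with Trizol and a column clean-up, labelled with biotin and hybridised to Affymetrix arrays, per the labels' protocols. The authors deposited log2 intensities made with RMA, per the submitters' processing notes; its version, and whether batches were corrected, is not given in the sources used here. RMA quantile-normalises across arrays, so each value depends on the whole set. Of 28204 probe sets, 21141 have 1 gene symbol in the platform annotation, 1881 have several and 5182 are not named here; single-symbol sets were kept, the set of highest mean for each gene, which left 18772 genes. The number of arrays limits the precision.

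The mouse was the replicate: values were averaged per mouse and group, and pairing came from the same animal. Comparisons used limma 3.58.1 in R 4.3.3 (figures and tables with Python 3.11.15), with mouse as a fixed block for matched groups, mouse as a random block for spindle against SCC, genotype as a covariate for the metastases, histology as a covariate for lung against lymph node, and batch (95 and 17 arrays, as labelled) as a covariate between genotypes. Log2 differences were adjusted over all genes (Benjamini-Hochberg, threshold 0.05), and intervals are at 95%. Simulated data were passed through the fits of papilloma against skin, spindle carcinoma against papilloma, SCC metastasis against SCC carcinoma and HrasKO against WT spindle carcinoma. Their noise was independent between arrays, with an SD of at most 1, so they do not show how the fits act where single mice lie far apart. The random-block fits of spindle against SCC were not simulated. The members, gene lists, marker lists and motifs were chosen with earlier results of these data known. Named beside the members are, per list, at most 2 called rises and 2 called falls of the largest size (where none passed, the 2 largest changes), and the 3 genes closest to each member by Pearson r; markers are given as list values, with single markers for keratinocytes and lung. Alternatives were arrays as units, no mouse block, a filter on low values (above the median on 8 arrays), another eBayes setting, repeated quantile normalisation, batch 1 alone, RegCA carcinomas, arrays standing apart or each mouse left out, lymph nodes alone and no covariates.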

Additional observations from a re-analysis of the deposited data

Results flagged for a closer look

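The spindle carcinoma of mouse 1949 lay far above the other 9 spindle carcinoma mice in all 9 genes: Esrp1 was 10.96 (next highest 7.15), Esrp2 10.11 (6.38), Grhl1 9.58 (5.68), Grhl2 8.95 (5.36), Grhl3 10.87 (7.16), Ovol1 9.67 (5.66), Ovol2 6.17 (5.16), Elf3 10.48 (5.69) and Ehf 11.49 (7.69). Its keratinocyte markers averaged 10.87, the highest of the spindle carcinoma mice and below the lowest mean of the 8 SCC carcinoma mice (11.18). A single SCC carcinoma array, of mouse 2022, was lower, at 10.735.

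In the spindle metastases mouse 1537 lay apart in 3 genes, with Esrp1 at 6.73 (next highest 5.02), Grhl2 at 5.83 (4.71) and Elf3 at 6.05 (4.67); these means include its lung metastasis. The SCC carcinoma of mouse 1383 had Ovol2 at 6.90, against 6.20 in the next of the 8 mice. Of 27 combinations of gene and group tested in this way 13 lay apart, where chance gives about 1 in 20, and the genes of 1 mouse are not independent. Among tumours that entered no comparison, the mixed carcinoma of mouse 1706 had Elf3 at 7.78, above the highest of the 15 skins (6.98).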

How the results depend on the processing

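Of 1872 results of single members under the alternatives, 1658 kept their direction and side of the threshold, 80 gained and 55 lost the call, 76 uncalled values changed sign and 3 were reversed: Esrp1 (0.43), Esrp2 (0.78) and Grhl2 (0.58) between papilloma and skin without the arrays that stood apart. There 8 members were called higher, and between SCC carcinoma and papilloma 1 was called lower (Esrp2, adjusted p = 0.0379). The causes were not tested, beyond the smaller numbers of mice where some are left out and the choice of the arrays apart by expression.

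Members called between spindle carcinoma and papilloma numbered 0 without RegCA carcinomas. Between SCC metastasis and SCC carcinoma, against 2, they numbered 1 with no replicate block, 1 without RegCA carcinomas and 0 in batch 1 alone, in lymph nodes alone or without the arrays apart. Between spindle and SCC metastasis, against 0, they numbered 9 with arrays as units, 9 in lymph nodes alone, 9 without the arrays apart, 8 with no genotype covariate, 6 with the filter (11758 genes) and 3 with repeated normalisation.

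All genes called moved as follows. SCC carcinoma minus papilloma (38): 170 with arrays as units, 0 in batch 1, 351 without the arrays apart. Spindle carcinoma minus papilloma (4470): 2278 in batch 1, 0 without RegCA, 7912 without the arrays apart. Spindle minus SCC carcinoma (1419): 2140, 657 in batch 1 and 3843. SCC metastasis minus SCC carcinoma (854): 2216 with arrays as units, 202 in batch 1, 62 without the arrays apart and 60 in lymph nodes. Spindle metastasis minus spindle carcinoma (0): 68 and 1. Spindle minus SCC metastasis (13): 1951 with arrays as units, 0 with no replicate block, 412 with the filter, 0 with trend and robust, 192 with repeated normalisation, 0 in batch 1, 611 with no genotype covariate, 2213 in lymph nodes and 1342 without the arrays apart. Lung minus lymph node (0): 331 with arrays as units, 28 with no replicate block, 14 without the arrays apart. HrasKO minus WT: skin (1) 0 in batch 1, papilloma (1) 0 with the filter, 0 in batch 1, 2 with no batch covariate.

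With each mouse left out in turn, members called ranged from 1 to 4 (papilloma minus skin), 0 to 9 (spindle minus SCC carcinoma), 0 to 2 (SCC metastasis minus SCC carcinoma) and 0 to 5 (spindle minus SCC metastasis). All genes called ranged from 0 to 89 (SCC carcinoma minus papilloma), 2105 to 5785 (spindle carcinoma minus papilloma), 1 to 3678 (spindle minus SCC carcinoma), 202 to 892 (SCC metastasis minus SCC carcinoma), 0 to 1 (spindle metastasis minus spindle carcinoma), 0 to 470 (spindle minus SCC metastasis), 0 to 33 (HrasKO minus WT papilloma) and 0 to 1 (HrasKO minus WT spindle carcinoma). With no replicate block the other counts of all genes were 8095 for papilloma and 5983 and 8721 for SCC and spindle carcinoma against skin, 4867 and 46 for spindle and SCC carcinoma against papilloma, 1570 for spindle against SCC carcinoma and 841 for SCC metastasis against SCC carcinoma. Left-out fits kept the mouse correlation of the whole fit, and fits with too few shared mice (RegCA out of the carcinomas, arrays apart out of the metastases) had no mouse block.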

Other observations

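The 4 mixed tumours differed widely in the members' levels. The mixed carcinoma of mouse 1706 had squamous levels, with Esrp1 at 10.38, Grhl2 at 8.47, Grhl3 at 9.67 and Ehf at 10.20. That of mouse 1616 had Esrp1 at 4.29, Grhl2 at 4.34, Grhl3 at 5.30 and Ehf at 4.66, and the mixed lung metastasis of mouse 1508 had Esrp1 at 4.20 and Ehf at 5.09. That of mouse 1949 lay between, with Esrp1 at 8.03, Esrp2 at 7.19, Grhl3 at 7.99 and Ehf at 7.68, while its Elf3 was 4.39 and its Ovol2 5.04.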
